A study of Mus musculus with 17 samples.

Results

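The Schlafen family genes are 7 genes that lie next to one another on mouse chromosome 11: Slfn1, Slfn2, Slfn3, Slfn4, Slfn5, Slfn8 and Slfn9. They were taken by symbol from a table of 31245 genes measured in mouse lung, and all 7 were found in it and had enough counts to be tested, among 26948 genes tested. The list was drawn up because Slfn1 and Slfn4 were seen to rise with perfluorooctanoic acid (PFOA) in mice without the nuclear receptor PPARα. The genes were thus chosen by their PFOA values in the PPARα null mice, and these are given below as a description with no test, while PFOA in the other genotypes and the differences between genotypes were tested.

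Lungs of 17 mice gave 1 RNA library each, 3 in each of 6 groups except wild type vehicle, which had 2. Wild type (WT) mice were Sv/129 animals bought from a supplier. PPARα null (KO) mice and mice with the human receptor in place of the mouse one (hPPARα, KI) were bred together from PPARα null and human PPARα heterozygous pairs, so the source of the mice and the genotype cannot be told apart in a comparison with WT. From 6 weeks of age all mice ate a diet modelled on that of American adults, and they drank water with 0.5% sucrose, either alone (vehicle) or with PFOA at 6.2 μg/mL (Hi-PFOA in the labels), for 14 weeks. Males and females were present in WT and KI, and all KO libraries came from females.

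Schlafen proteins are found in mammals, where many of them are induced by type I interferon in immune cells. Short members (Slfn1, Slfn2) and members of intermediate length (Slfn3, Slfn4) share a core domain, and long members (Slfn5, Slfn8, Slfn9) carry in addition a helicase-like part. The family is known for restraining the growth of lymphocytes and myeloid cells, for cutting transfer RNA and for limiting viruses. PPARα is activated by fatty acids and by PFOA and binds, together with a partner receptor, to direct repeats in DNA.

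Total counts ranged from 4116116 to 9237385 per library (median 7524817), so that 3 counts stood for 0.325 to 0.729 CPM (counts scaled to a common library size with TMM factors). The libraries written here as WT vehicle 122 and KO vehicle 137, after their animal numbers, stood apart with 65.31% and 61.28% of their counts in protein-coding genes, against 74.45% to 80.36% in the other 15. Ppara itself, the targeted gene, was not lower in the libraries labelled KO: it was at 8.88 to 11.7 CPM there, 4.42 to 7.15 in WT and 9.03 to 20.4 in KI. The counts cover the whole gene, the sources used here do not say which part was deleted, and KO below stands for the label. The i5 sequencing index was taken from a number in each library's name, and reading that number as the i5 index is an assumption. The 3 KO PFOA libraries had the same index, which no KO vehicle library had. In KO the index thus cannot be told apart from the exposure. Both WT vehicle libraries had the same index, which among the WT PFOA libraries only WT PFOA 65 had.

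The cluster covers 264 kb, chr11:82951349-83215154 in mm10, in the order Slfn5, Slfn9, Slfn8, Slfn2, Slfn1, Slfn4, Slfn3. Slfn8 and Slfn9 lie on the minus strand and the other 5 on the plus strand. The coding sequences of Slfn8 and Slfn9 are 92.7% identical over 2730 bases, and those of Slfn3 and Slfn4 are 92.7% identical over 1785 aligned bases. The reads averaged about the length of the windows used to ask where such copies could exchange reads, which was 80 bases. By that measure 6.01% of the windows of Slfn8 and 5.32% of those of Slfn9 occur in another Schlafen gene, mostly the pseudogene Slfn10-ps, while Slfn2, Slfn3 and Slfn4 share 0.881% to 1.39% and Slfn1 and Slfn5 share 0. Reads from these windows were split between genes by the counting model, and values of Slfn8 and Slfn9 are the most uncertain for it.

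The promoters below show the letters just before the start sites of the near copies Slfn8 and Slfn9, and of Slfn1 and Slfn4, which named the list. Each is 250 bases long, written on the gene's strand from 5′ to 3′ and taken from RefSeq on GRCm38.p6. Capitals mark matches to the interferon-stimulated response element, searched on both strands as GAAA, any 2 bases and GAAA again. The regions are chr11:83020811-83021060 (Slfn8, minus strand), chr11:82991831-82992080 (Slfn9, minus), chr11:83116570-83116819 (Slfn1, plus) and chr11:83174936-83175185 (Slfn4, plus). The start of Slfn1 in RefSeq lies 29 bases from that in the count table.
Slfn8: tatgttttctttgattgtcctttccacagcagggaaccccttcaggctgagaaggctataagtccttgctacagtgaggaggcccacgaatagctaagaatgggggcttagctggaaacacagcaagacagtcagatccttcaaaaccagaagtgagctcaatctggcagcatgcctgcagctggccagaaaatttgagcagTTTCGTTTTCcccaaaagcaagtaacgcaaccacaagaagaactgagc
Slfn9: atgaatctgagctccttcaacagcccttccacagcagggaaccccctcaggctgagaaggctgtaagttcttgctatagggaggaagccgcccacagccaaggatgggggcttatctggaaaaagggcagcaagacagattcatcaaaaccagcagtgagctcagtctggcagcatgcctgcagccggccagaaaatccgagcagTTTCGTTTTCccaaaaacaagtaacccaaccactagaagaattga
Slfn1: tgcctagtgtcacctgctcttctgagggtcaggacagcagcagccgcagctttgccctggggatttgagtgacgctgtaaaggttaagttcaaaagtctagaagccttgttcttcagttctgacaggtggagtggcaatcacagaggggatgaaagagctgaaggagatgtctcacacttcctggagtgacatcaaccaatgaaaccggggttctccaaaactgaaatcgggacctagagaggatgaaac
Slfn4: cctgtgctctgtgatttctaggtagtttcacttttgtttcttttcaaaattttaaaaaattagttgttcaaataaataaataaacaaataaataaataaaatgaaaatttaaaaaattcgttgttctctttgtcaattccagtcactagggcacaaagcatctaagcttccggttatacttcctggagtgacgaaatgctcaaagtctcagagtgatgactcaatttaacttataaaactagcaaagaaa

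Slfn8 and Slfn9 hold the same 10 letters, TTTCGTTTTC, at 48 to 39 and at 45 to 36 bases before their starts. Their promoters are 85.1% identical over 242 aligned bases, against 57.1% over 219 for Slfn1 and Slfn4. Slfn5 holds GAAAAAGAAA at 155 to 146 bases before its RefSeq start, which lies 753 bases from the gene start in the count table. In Slfn1, Slfn2, Slfn3 and Slfn4 these letters were not in the window. The element is in 2.98% of 32851 mouse promoters of this length. No match was found in any of the 7 windows to TTCNNNGAA, the interferon gamma activated site present in 7.02% of promoters, or to AGGTCA, any base and AGGTCA again, the repeat that PPARα binds, present in 0.0335%.

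Per kilobase of exon, Slfn5 and Slfn2 were by far the most abundant members. Mean CPM per kilobase over the 17 libraries was 30.6 ± 6.91 (SD) for Slfn5, 18.9 ± 7.87 for Slfn2, 3.86 ± 2.57 for Slfn1, 2.74 ± 1.66 for Slfn8, 1.98 ± 2.35 for Slfn4, 1.82 ± 0.654 for Slfn3 and 1.54 ± 0.601 for Slfn9. The last 5 had overlapping ranges of mean ± SD, which mix the groups, and the order among them was not tested. Slfn5 alone held 57.0% to 81.5% of the CPM summed over the family. Slfn4 was the most variable member, with 60.7 times as many CPM in its highest library as in its lowest, against 3.13 times for Slfn5.

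**Figure D1:**
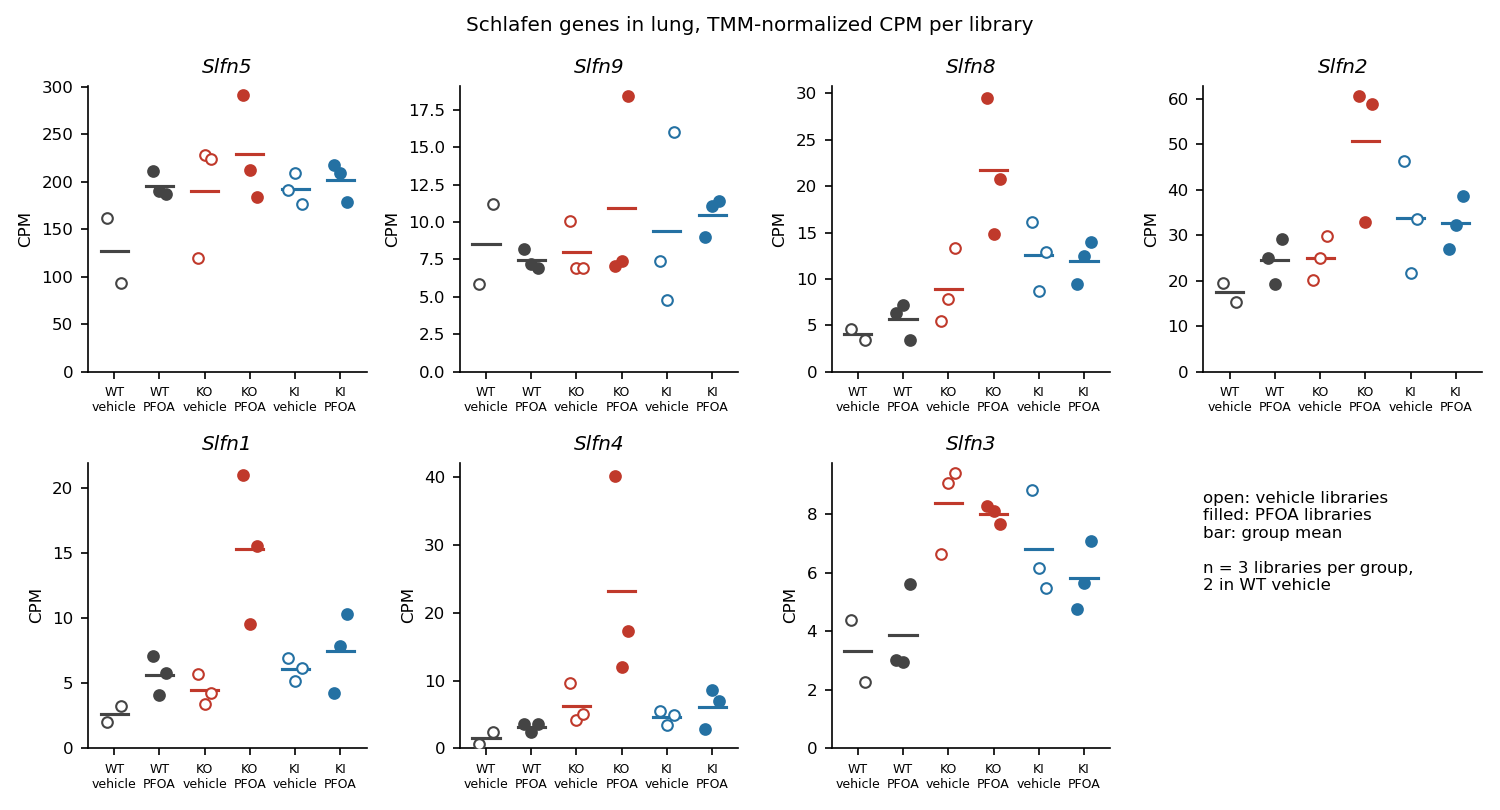
TMM-normalized CPM (linear y axis from 0) of each Schlafen gene in the 17 libraries, by genotype and drinking water, with open points for vehicle, filled points for PFOA and a bar at the group mean (n = 3, and 2 in WT vehicle). Slfn1, Slfn2, Slfn4 and Slfn8 are higher in every KO PFOA library than in every KO vehicle library, while Slfn3, Slfn5 and Slfn9 overlap.

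In KO lung the whole cluster did not move with PFOA as 1 block. Slfn1, Slfn2, Slfn4 and Slfn8 were higher in all 3 PFOA libraries than in all 3 vehicle libraries, and Slfn3, Slfn5 and Slfn9 overlapped. Over all tested genes 6.81% were separated upward in this way in KO, and nothing is read from the count of 4, since this contrast chose the list.

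Slfn1, which slows the growth of thymocytes when overexpressed, was at 5.74, 3.41 and 4.27 CPM in the KO vehicle libraries and at 21, 9.51 and 15.5 in the KO PFOA libraries. Its log2 fold change was 1.79 ± 0.35 (SE), or 3.47-fold. Slfn2, needed to keep T cells quiescent, was at 20.2, 24.9 and 29.9 CPM on vehicle and at 60.5, 32.8 and 58.7 on PFOA, with a log2 fold change of 1.01 ± 0.26. The groups of both genes were apart, and the library KO PFOA 154 was the lowest of its group for each.

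The intermediate members Slfn4 and Slfn3, nearly identical to each other in coding sequence, had unlike values. Slfn4, known from myeloid cells, was at 9.64, 4.12 and 5.03 CPM on vehicle and at 40.2, 12 and 17.3 on PFOA. Its log2 fold change of 1.92 ± 0.46 was the largest of the 7 and leaned on KO PFOA 52, without which it was 1.25. Slfn3, its neighbour, was at 6.65, 9.09 and 9.42 CPM on vehicle and at 8.29, 8.12 and 7.68 on PFOA. Its log2 fold change was -0.08 ± 0.29, and the PFOA libraries lay within the range of the vehicle libraries.

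Among the long members Slfn8 was the one that separated. It was at 5.51, 7.81 and 13.3 CPM on vehicle and at 29.5, 14.8 and 20.8 on PFOA, a log2 fold change of 1.26 ± 0.33. Its near copy Slfn9 was at 10.1, 6.96 and 6.91 CPM on vehicle and at 7.08, 7.37 and 18.4 on PFOA, where a single library, KO PFOA 155, carried the mean. The log2 fold change of Slfn9 was 0.46 ± 0.40, and without that library it was -0.13. Slfn5, a nuclear member, was at 120, 228 and 224 CPM on vehicle and at 291, 212 and 184 on PFOA, with a log2 fold change of 0.26 ± 0.23. The lowest of these Slfn5 values came from KO vehicle 137, and without that library the change was 0.02.

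The median log2 fold change of the 7 genes in KO was 1.01, and ran from 0.85 to 1.24 as single libraries were left out. It is a description only, since this contrast chose the list. The difference of the KO effect from the WT effect was 0.67 ± 0.55 for Slfn1 and 0.83 ± 0.83 for Slfn4 on the log2 scale, given here with no test. With single libraries left out it ran from 0.27 to 1.0 for Slfn1 and from -0.35, without WT vehicle 122, to 1.53, without WT vehicle 107, for Slfn4.

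**Figure D2:**
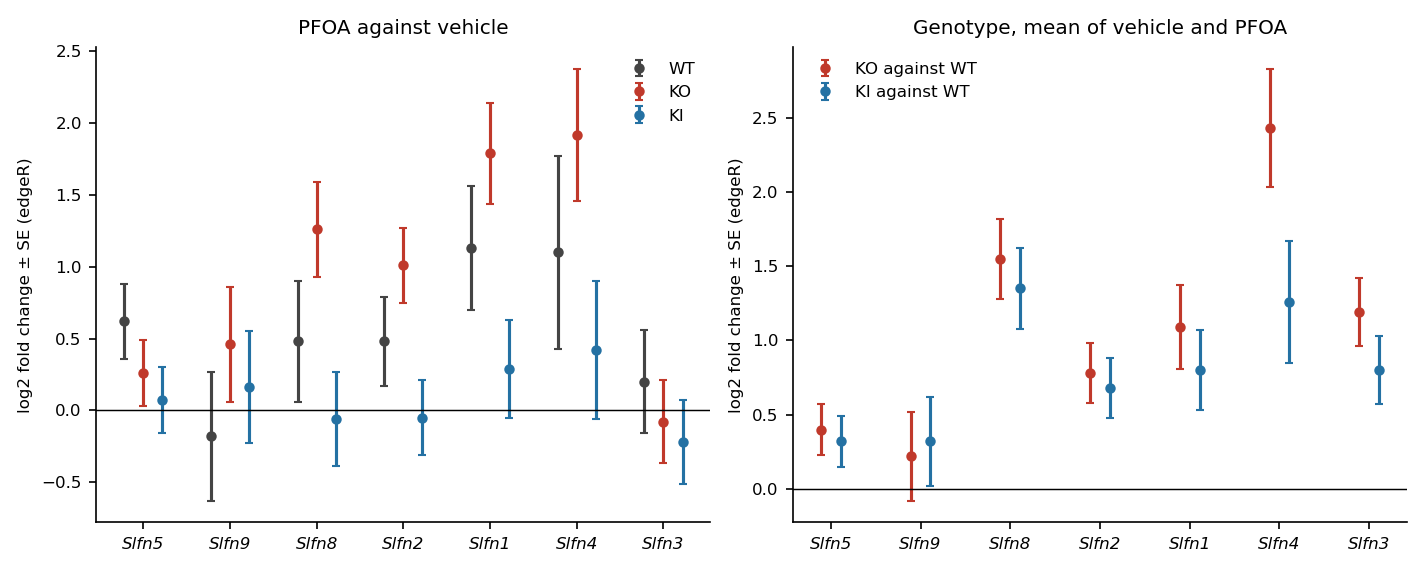
Left, log2 fold change of each Schlafen gene from vehicle to PFOA, by genotype, and right, log2 fold change of KO and of KI against WT averaged over vehicle and PFOA, with points for edgeR estimates and bars for ± 1 SE. On the left, KO points for Slfn1, Slfn2, Slfn4 and Slfn8 are at 1.01 to 1.92 and all KI points are between -0.22 and 0.42. On the right, all 14 points are above 0.

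Whether PFOA moved these genes where PPARα was present was tested in WT and KI. No Schlafen gene was called in either genotype, with a call at an edgeR quasi-likelihood adjusted p under 0.2 (Benjamini-Hochberg) and a change over 2-fold. None of all genes tested was called either, so that the share called was 0% in WT, 0% in KI and 0% over WT and KI together. DESeq2 called 24, 1 and 8 genes in these comparisons and no Schlafen gene among them.

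In WT, Slfn1 was at 1.99 and 3.25 CPM on vehicle and at 7.07, 4.13 and 5.76 on PFOA. Its log2 fold change was 1.13 ± 0.43, with an unadjusted edgeR p of 0.0171 and an adjusted p of 0.578. Slfn5 was at 162 and 93.1 CPM on vehicle and at 211, 190 and 187 on PFOA, a log2 fold change of 0.62 ± 0.26. Its unadjusted edgeR p was 0.0288 and its adjusted p was 0.627. In these 2 genes the groups did not overlap, which was also true of 12% of all genes tested, upward, in this comparison of 2 libraries with 3. They were also the 2 members at an unadjusted edgeR p under 0.05, as were 3.18% of all genes in that direction.

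Slfn4 had 5 and 15 counts in the WT vehicle libraries, 0.66 and 2.44 CPM, and was at 3.66, 2.36 and 3.58 CPM on PFOA. Its log2 fold change in WT, 1.10 ± 0.67 (edgeR adjusted p = 0.748), ran from 0.39 without WT vehicle 107 to 2.24 without WT vehicle 122. Without WT vehicle 107, Slfn5 was called in WT at a log2 fold change of 1.07, with the lone vehicle library left, WT vehicle 122, being one of the libraries that stood apart. Without WT vehicle 122 the change of Slfn5 was 0.27, and Slfn5 was not called. The median of the 7 genes in WT was 0.48, against 0.04 over all genes.

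In KI the log2 fold changes of the 7 genes were between -0.22 and 0.42. Slfn1 was at 6.92, 5.16 and 6.17 CPM on vehicle and at 4.21, 7.85 and 10.3 on PFOA, and Slfn4 at 5.47, 3.40 and 4.91 on vehicle and at 2.85, 8.62 and 6.94 on PFOA. The groups of both overlapped. No member was separated upward, as 4.41% of all genes were, and no member had an unadjusted edgeR p under 0.05, against 1.44% of all genes upward. The 95% interval of the log2 change in KI was -0.46 to 1.04 for Slfn1, -0.63 to 0.53 for Slfn2 and -0.65 to 1.48 for Slfn4. Doubling was outside the interval for Slfn2, and also for Slfn3, Slfn5 and Slfn8 (upper limits 0.43, 0.58 and 0.66). It was within the interval for Slfn1, Slfn4 and Slfn9 (upper limit 1.02 for Slfn9). For the difference of the KI effect from the WT effect 0 members were called, as were 0% of all genes, with log2 differences of -0.84 to 0.34. DESeq2 called 0 members here too, and 0 had an unadjusted edgeR p under 0.05.

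Over WT and KI together, Slfn1 had a log2 fold change of 0.71 ± 0.27, with an unadjusted edgeR p of 0.0187 and an adjusted p of 0.776. Slfn4 had one of 0.76 ± 0.41 (edgeR adjusted p = 0.822). Slfn1 was the 1 member at an unadjusted p under 0.05, as were 2.93% of all genes upward.

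Averaged over vehicle and PFOA, 4 of the 7 genes were called higher in KO than in WT, where 2.2% of all genes were called higher, and all 7 had values above 0. The average includes the KO PFOA libraries that chose the list, in which Slfn1 and Slfn4 were seen to be high. The calls and the median of the 7 are thus not independent of how the list was chosen. In vehicle libraries alone 1 member, Slfn3, was called, though the KO vehicle libraries were the other side of the contrast that chose the list. Slfn4 was higher by 2.43 ± 0.40 on the log2 scale, or 5.37-fold (edgeR adjusted p = 0.00279), and Slfn8 by 1.55 ± 0.27, or 2.93-fold (adjusted p = 0.00415). Slfn3, which did not separate with PFOA in KO, was higher by 1.19 ± 0.23 (edgeR adjusted p = 0.00985), and Slfn1 by 1.09 ± 0.28 (adjusted p = 0.0483). Slfn2 passed the p threshold (0.78 ± 0.20, edgeR adjusted p = 0.0547) at a change of 1.72-fold, under the fold limit. Slfn5 (0.40 ± 0.17) and Slfn9 (0.22 ± 0.30) had adjusted p-values of 0.305 and 0.823. The median of the 7 was 1.09, against 0.04 over all genes, and it was 0.76 in vehicle libraries alone.

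Slfn3 and Slfn4 were the members for which every KO library was above every WT library, as were 1.27% of all genes. Slfn3 was at 6.65 to 9.42 CPM in the 6 KO libraries and at 2.27 to 5.63 in the 5 WT libraries, and Slfn4 at 4.12 to 40.2 against 0.66 to 3.66. In vehicle libraries alone Slfn3 was at 1.33 ± 0.35 (edgeR adjusted p = 0.136), a call made upward for 0.909% of all genes. The KO vehicle libraries belong to the contrast that chose the list, so the call is not independent of that choice. It also holds both libraries that stood apart, WT vehicle 122 at 2.27 CPM (14 counts) and KO vehicle 137 at 6.65 CPM. Not called there were Slfn4 at 2.01 ± 0.65, Slfn8 at 1.16 ± 0.42 and Slfn1 at 0.76 ± 0.44 (edgeR adjusted p = 0.241, 0.284 and 0.443). In PFOA libraries alone, given with no test since these KO libraries chose the list, KO was above WT by 1.43 for Slfn1, 1.05 for Slfn2, 1.05 for Slfn3, 2.84 for Slfn4, 0.22 for Slfn5, 1.94 for Slfn8 and 0.54 for Slfn9.

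In KI 2 members were called higher than in WT, where 1.14% of all genes were. Slfn8 was at 8.69 to 16.1 CPM in the 6 KI libraries and at 3.41 to 7.22 in the WT libraries, with no overlap, as was true of 0.95% of all genes. It was higher by 1.35 ± 0.27 on the log2 scale (edgeR adjusted p = 0.0155). Slfn4 was higher by 1.26 ± 0.41 at an adjusted p of 0.19999, on the threshold, and lost the call under several other settings. Slfn2 (0.68 ± 0.20, edgeR adjusted p = 0.151) and Slfn3 (0.80 ± 0.23, adjusted p = 0.138) passed the p threshold at 1.60-fold and 1.74-fold, under the fold limit. Between KO and KI no member was called, as against 0.00742% of all genes. Slfn4 had the largest difference there, 1.17 ± 0.33 higher in KO. This average also holds the KO libraries of the contrast that chose the list. In vehicle libraries alone, which belong to it too, the Slfn4 difference was 0.41 ± 0.49. DESeq2 called 0 members between KO and KI as well.

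With the i5 index as a covariate, 0 members were called in either genotype. For KO against WT the values were then 0.80 for Slfn1, 1.26 for Slfn3, 2.12 for Slfn4 and 0.90 for Slfn8 (edgeR adjusted p = 0.59, 0.244, 0.233 and 0.408), and for KI against WT Slfn8 was at 0.98 (adjusted p = 0.14). With sex as a covariate 3 members were called in KO, without Slfn1 (0.94, edgeR adjusted p = 0.236), and 1 in KI, Slfn8. Leaving out both libraries that stood apart gave the same genes, 4 in KO and 2 in KI.

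The near copies Slfn8 and Slfn9 were also set against each other. The log2 ratio of Slfn8 to Slfn9, on CPM plus 0.5, was -0.63 ± 0.63 (SD, n = 5) in WT, 0.56 ± 0.95 (n = 6) in KO and 0.35 ± 0.50 (n = 6) in KI. Compared within vehicle and PFOA, it was higher than in WT by 1.24 in KO (exact permutation test, 2-sided p = 0.04, adjusted over 4 tests 0.08) and by 1.03 in KI (exact permutation p = 0.025, adjusted 0.08). For Slfn4 to Slfn3 the differences were 1.01 in KO (exact permutation p = 0.105, adjusted 0.14) and 0.32 in KI (exact permutation p = 0.545). The smallest p these 200 arrangements allow is 0.005, and the pairs were chosen after their values were seen. None of the 4 passed 0.05 after adjustment. Both KO differences also hold the KO PFOA libraries that chose the list, so nothing is read from their p-values. The adjustment for KI took in these p-values too. In KO the mean log2 ratio of Slfn8 to Slfn9 was 0.08 on vehicle and 1.04 on PFOA. For Slfn4 to Slfn3 it was -0.47 on vehicle and 1.29 on PFOA.

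**Figure D3:**
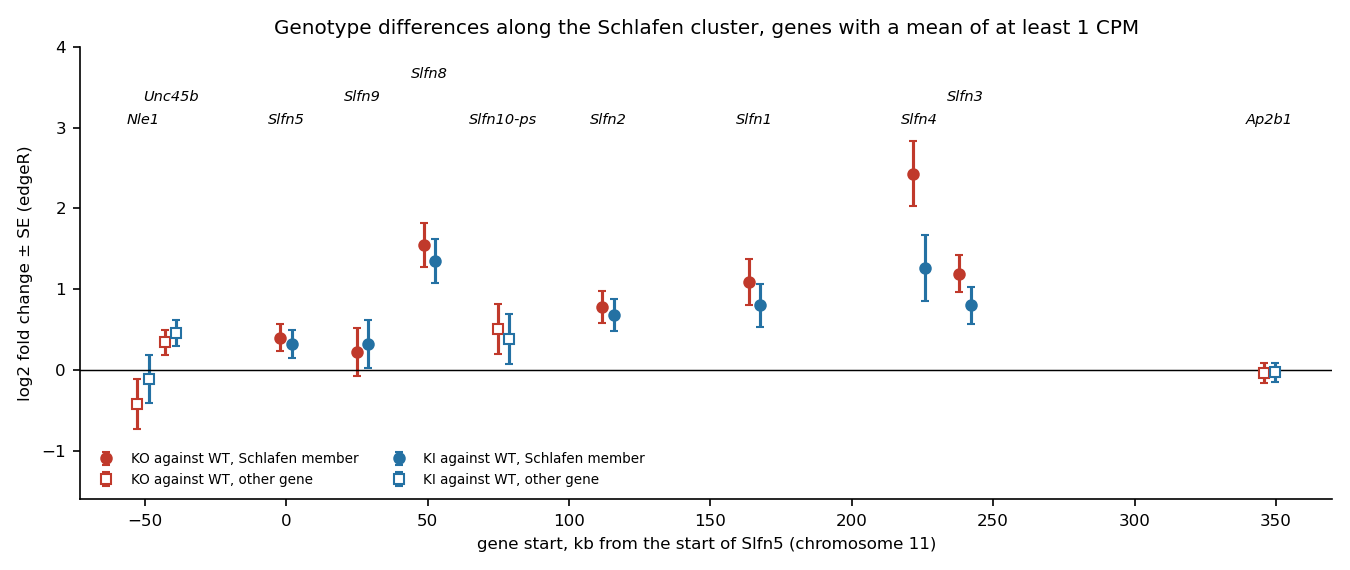
Log2 fold change (edgeR, bars ± 1 SE) of KO and of KI against WT for genes at the Schlafen cluster that averaged 1 CPM or more, by distance of the gene start from that of Slfn5 in kb. KO and KI points are set slightly left and right of the position. Filled circles are the 7 Schlafen genes and open squares other genes. Slfn8 and Slfn4 stand highest, and the flanking genes Nle1, Unc45b and Ap2b1 lie between -0.42 and 0.46.

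The flanking genes given here were not called in KO against WT. Upstream, Unc45b, a myosin chaperone, was at 0.34 ± 0.16 (edgeR adjusted p = 0.351), Nle1 at -0.42 ± 0.31 and Fndc8 at 0.34 ± 1.06. Downstream, Ap2b1, an adaptor subunit of clathrin coats, was at -0.04 ± 0.12 (edgeR adjusted p = 0.933). Slfn14, a long Schlafen gene beyond Slfn3, had a mean of 0.532 CPM and was at 1.91 ± 0.90 (adjusted p = 0.357). Inside the cluster the pseudogene Slfn10-ps was at 0.51 ± 0.31 (adjusted p = 0.504), and the antisense genes Slfn5os and Gm20234, whose reads may not be told apart from those of Slfn5 and Slfn2, had means of 0.875 and 0.948 CPM against 193 and 31.4. Gm11424 and Gm11425, processed pseudogenes, were under 0.25 CPM on average. Of these Gm11425 was called higher in KO, at 4.61 ± 1.5 (edgeR adjusted p = 0.153) from a mean of 0.184 CPM. Slfnl1, which lies elsewhere, was at 0.37 ± 0.68.

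Interferon pathway genes were described beside the Schlafen genes, from lists drawn up with earlier results of these data known. Of the ligands, 2 of 10 were in the table, and Ifng was at 0 in 9 libraries. Of 9 receptor and kinase genes none was called in KO or KI against WT, with medians of 0.02 and 0.04, and 0 had an unadjusted p under 0.05. Jak1, the kinase shared by these receptors, was at 0.02 ± 0.15 in KO. Of 8 transcription factors 1 was called higher in KO and 0 in KI, with medians of 0.59 and 0.50. The shares called higher over all genes were 2.2% and 1.14%.

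Of 40 interferon-induced genes, 12 were called higher in KO (median 0.77) and 8 in KI (median 0.55), none lower, and none was called for PFOA in WT or KI. Over all genes 2.2% were called higher in KO and 1.14% in KI. In vehicle libraries alone 5 of the 40 were called higher in KO, where 0.909% of all genes were, and 2 in KI. Oas2, a sensor of double-stranded RNA, was higher by 3.24 ± 0.39 in KO (edgeR adjusted p = 0.000117) and by 2.44 ± 0.40 in KI (adjusted p = 0.00288). Zbp1, a sensor of Z-form nucleic acid, was higher by 1.67 ± 0.40 in KO (edgeR adjusted p = 0.0383). The most abundant members of this list moved less, and Parp14 was at 0.43 ± 0.11, Adar at 0.33 ± 0.11 and Herc6 at 0.62 ± 0.13. With the i5 index as a covariate 2 were called in KO and 3 in KI. For PFOA in KO, 39 of the 40 had values above 0, with a median of 0.34, where 47.3% of all genes had values above 0 and the median of all genes was -0.03. The Schlafen median in that contrast is not set against these, since the contrast chose the Schlafen genes.

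**Figure D4:**
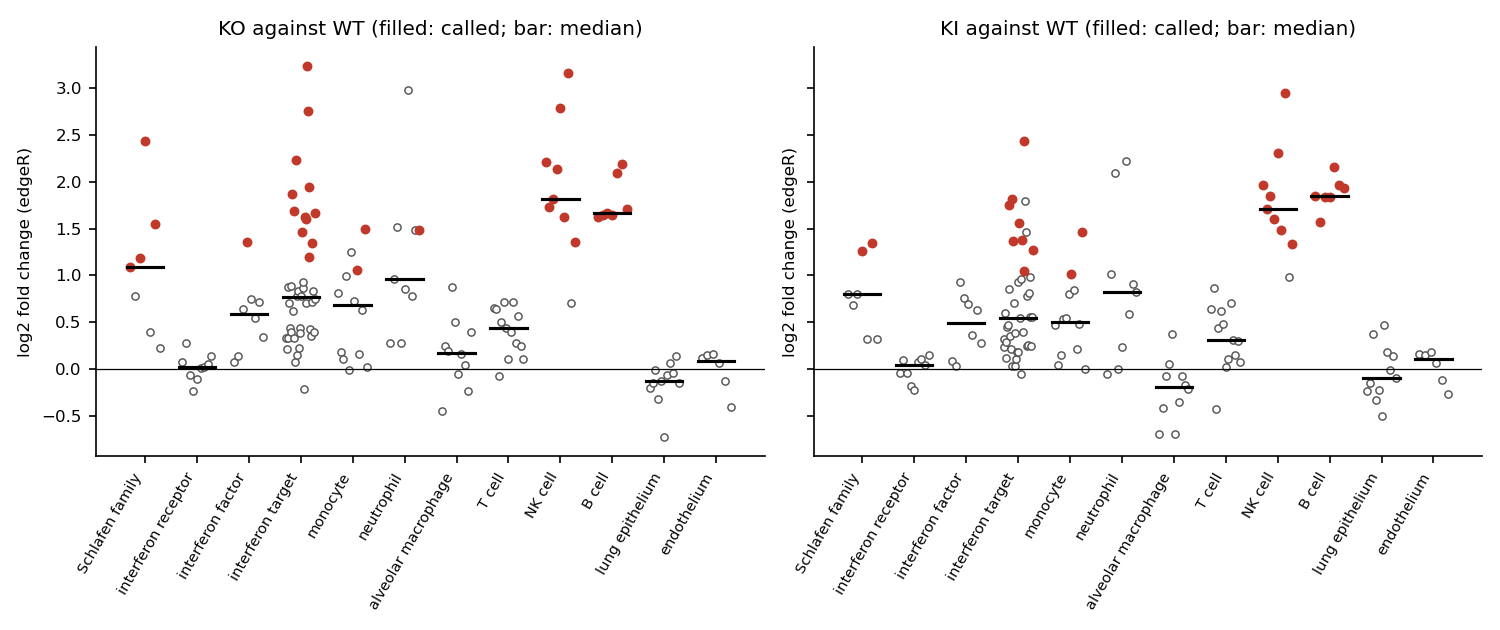
Log2 fold changes (edgeR) of KO against WT, left, and KI against WT, right, for the members of each gene list, with filled points for called genes, open points for the rest and a bar at each median. The Schlafen medians are 1.09 and 0.80, those of the interferon-induced genes 0.77 and 0.55, and those of NK cell markers 1.82 and 1.71.

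Markers of some immune cells, but not of others, were called between genotypes. In whole lung a change in cell number and a change in RNA per cell cannot be told apart. Of 9 natural killer (NK) cell markers 8 were called higher in KO than in WT and 8 in KI, among them Gzma (1.73 ± 0.29 in KO). Of 7 B cell markers all were called in both, among them Cd22 (1.64 ± 0.39 in KO). Over all genes 2.2% were called higher in KO and 1.14% in KI. In vehicle libraries alone 6 NK and 0 B cell markers were called higher in KO, where 0.909% of all genes were. In KI 6 and 5 were called in vehicle libraries alone, and the share over all genes there is not given. Summed over the list, NK cell markers were at 4.22 to 8.49 CPM in WT vehicle, 13.1 to 25.3 in WT PFOA, 25.8 to 29.3 in KO vehicle, 47.1 to 65.0 in KO PFOA, 20.6 to 41.1 in KI vehicle and 30.2 to 46.2 in KI PFOA. B cell markers ran from 7.63 to 37.9 CPM in WT, 30.3 to 148 in KO and 18.9 to 185 in KI. For PFOA, 7 of 7 B cell markers had values above 0 in WT (median 1.2) and 0 of 7 in KI (median -1.07). Of all genes 54.1% had values above 0 in WT and 50.4% in KI. Ncr1, Klre1, Gzmb and Eomes were each at 0 in 1 library. Of 13 T cell markers none was called by edgeR or DESeq2 in either comparison, and 3 had an unadjusted edgeR p under 0.05 in each, with Tcf7 at 0.11 ± 0.15 in KO. For PFOA in WT, 13 of 13 T cell markers had values above 0 (median 0.94), 9 of them at an unadjusted edgeR p under 0.05 and none called, and they summed to 60.3 to 86.6 CPM on vehicle and 115 to 159 on PFOA. Of the NK cell markers 9 of 9 were above 0 there (median 1.41), 6 of them at an unadjusted edgeR p under 0.05 and none called. Over all genes 3.18% were upward at such a p in WT. With the i5 index as a covariate 4 NK cell markers and 0 B cell markers were called in KO, and as many in KI. Without WT vehicle 122 and KO vehicle 137 the counts were 7 and 3 in each genotype. With sex as a covariate they were 7 and 3 in KO, and 8 and 7 in KI.

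Monocyte markers summed to 433 to 1880 CPM in KO vehicle and 2070 to 2120 in KO PFOA. All 12 monocyte markers had values above 0 for PFOA in KO (median 0.77), where 47.3% of all genes had (median -0.03). Lyz2 and Csf1r were the most abundant of them. Neutrophil markers, of which Ly6g and Camp were not in the table, summed to 23.3 to 71.4 CPM in KO vehicle and 63.5 to 108 in KO PFOA (median 1.53, 8 of 9 above 0), with Csf3r and Ltf the most abundant. Against WT, 2 of 12 monocyte markers were called higher in KO and 2 in KI. Of 9 neutrophil markers 1 was called higher in KO and 0 in KI. The shares called higher over all genes were 2.2% in KO and 1.14% in KI. T cell markers summed to 83.5 to 105 CPM in KO vehicle and 141 to 196 in KO PFOA. Alveolar macrophage markers summed to 83.5 to 244 CPM and 287 to 371. None of the 10 alveolar macrophage, 11 lung epithelium or 6 endothelium markers was called in KO or KI against WT, with medians of -0.19 to 0.18. The part of these cells in the Schlafen values was not tested.

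**Figure D5:**
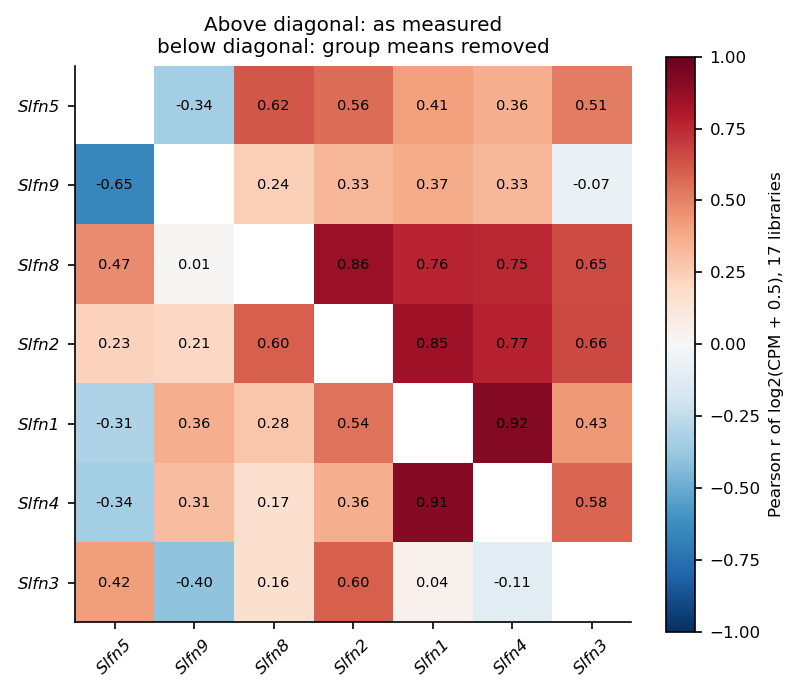
Pearson r between each pair of Schlafen genes over 17 libraries, on log2(CPM + 0.5), as measured (above the diagonal) and with the group means removed (below it). Slfn1 and Slfn4 stay at 0.91 with the group means removed, while Slfn5 and Slfn9 are at -0.34 and -0.65.

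The members did not vary as 1 unit across libraries. Over the 21 pairs the median Pearson r was 0.56, from -0.34 to 0.92, and 19 pairs were above 0. With the group means removed the median was 0.23. Slfn1 and Slfn4, neighbours among the members, were the closest pair (r = 0.92), and their r with group means removed was 0.91. Slfn3, next to Slfn4, had an r of 0.58 with it, and -0.11 with group means removed. Slfn2 was near Slfn8 (r = 0.86) and Slfn1 (r = 0.85). Slfn5 and Slfn9 went opposite ways, at -0.34. All these values share library, depth and group, and are given as a description.

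Ranked over 15500 genes averaging 20 counts or more, the 5 most like Slfn1 included Igsf6, Bak1, Ms4a4b and Fyb (Pearson r = 0.87 to 0.89, Spearman rho = 0.88 to 0.92, n = 17). The gene most like Slfn4 was Zbp1 (r = 0.90, rho = 0.94), followed by Gm21188, Lilra6 and Oas2, among the 5 most like it. For the CPM summed over the 7 genes it was Ifi27l2a, an interferon-induced gene (r = 0.91, rho = 0.80), followed by Cd226, Gm7676, Ncoa4 and Trim30a.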

How the data were processed

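Lung RNA of 17 mice was analysed. Per the labels and the study's methods, the authors made stranded total RNA libraries from 6 ng of RNA, trimmed the reads, aligned them in Partek Flow (STAR 2.6, mm10) and deposited estimated counts per gene from an expectation-maximization model, without normalization. In 31.3% of the cells these were not whole. The annotation release and the use of strand in counting are not given in the sources used here. The study left out 1 WT vehicle sample for RNA quality, which was not analysed here. The table's columns of per-sample values outside the sample list numbered 0.

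Counts were rounded, and 26948 genes with a total of at least 20 were kept (4297 were below). edgeR 4.0.16 in R 4.3.3 fitted 6 groups over all 17 libraries with TMM factors and the quasi-likelihood test. The Benjamini-Hochberg adjustment ran over all genes, and a call needed an adjusted p under 0.2 and a fold over 2. The fit was tested on simulated counts. Genotype contrasts were averaged over both exposures. The 95% intervals used 11 residual degrees of freedom. A pair ratio was compared with an exact permutation test within exposure. Replicate libraries differed by more than counting noise (chi-square per degree of freedom of at least 6.28). P-values measure the spread between these mice.

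Named were all members, other Schlafen-named genes, genes within the cluster and the 3 nearest tested protein-coding genes each side, the 3 most abundant genes of each interferon list, the 2 most abundant markers of the cell lists described, the 5 genes most like Slfn1, Slfn4 and the sum, and Ppara. Cell markers named for being at 0 or absent, and Gzma and Cd22, add to these. Members and lists were chosen with earlier results of these data known. Alternatives were DESeq2 1.42.0, other scaling factors, filters and thresholds, covariates, and each library left out. Exons and pseudogenes came from GENCODE M21 and promoters from RefSeq. Some genes that this rule takes in are not reported here.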

Additional observations from a re-analysis of the deposited data

How the results depend on the processing

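The counts of Schlafen genes called kept within 1.5 times of the reported ones under all alternatives except those given here. For KI against WT, reported at 2, the count was 1 with RLE or upper-quartile factors, sex as a covariate, robust estimation, vehicle libraries alone or an adjusted p under 0.05, 0 with the i5 index as a covariate or PFOA libraries alone, 4 with no fold limit, and 1 to 2 with single libraries left out, where Slfn8 kept its call and Slfn4 lost it without any one of WT vehicle 107, WT PFOA 50, 56 or 65, KO vehicle 145 or 149, KO PFOA 155, KI vehicle 102 or 135, or KI PFOA 80 or 139. Without WT vehicle 107 the count stayed at 2 because Slfn3 gained a call (1.07) as Slfn4 lost its own (0.91). For KO against WT, reported at 4, it was 0 with the i5 index and 1 in vehicle libraries alone, and 3 to 4 with single libraries left out, where Slfn4 and Slfn8 kept their calls, Slfn1 lost its call without WT vehicle 107, WT PFOA 56, KO vehicle 137 or KO PFOA 52 (lowest value 0.92), and Slfn3 without WT vehicle 122 (0.99). For PFOA in WT, reported at 0, it was 0 to 1, and 1 was without WT vehicle 107. DESeq2 called the same genes as edgeR in KO and KI against WT. The cause of these changes was not tested.

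The sign of small log2 changes turned as follows. With the i5 index, PFOA gave -0.07 for Slfn8 in WT, 0.03 for Slfn2 and 0.31 for Slfn8 in KI and 0.05 for Slfn3 over WT and KI, the difference of the KI from the WT effect was 0.37 for Slfn8, and KO against KI was -0.09 for Slfn8. Upper-quartile factors gave 0.0022 for Slfn3 and 0.004 for Slfn9 over WT and KI. Without WT vehicle 122 and KO vehicle 137, chosen after seeing the data, PFOA gave -0.17 for Slfn3 and 0.35 for Slfn9 in WT, 0.25 for Slfn9 over WT and KI, and -0.19 for Slfn9 as the difference of KI from WT. The fits within exposure, also chosen later, gave in vehicle libraries -0.1 for Slfn9 in KO against WT and -0.46, -0.42, -0.01 and -0.46 for Slfn1, Slfn2, Slfn5 and Slfn8 in KO against KI, where Slfn9 was at 0.05 in PFOA libraries.

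With single libraries left out, values that crossed 0 ran as follows. PFOA against vehicle in WT gave -0.18 to 0.76 for Slfn3 and -0.6 to 0.34 for Slfn9. PFOA against vehicle in KI gave -0.01 to 0.58 for Slfn1, -0.28 to 0.23 for Slfn2, -0.27 to 0.15 for Slfn8 and -0.16 to 0.8 for Slfn9. PFOA against vehicle over WT and KI gave -0.2 to 0.27 for Slfn3 and -0.22 to 0.3 for Slfn9. The KI effect less the WT effect gave -1.83 to 0.03 for Slfn4 and -0.18 to 0.99 for Slfn9. PFOA against vehicle in KO, with no test, gave -0.21 to 0.01 for Slfn3 and -0.13 to 0.68 for Slfn9, and the KO effect less the WT effect gave -0.84 to 0.1 for Slfn3 and -0.35 to 1.53 for Slfn4. KO against WT gave -0.08 to 0.48 for Slfn9. KO against KI gave -0.02 to 0.24 for Slfn2, -0.03 to 0.21 for Slfn5, -0.02 to 0.31 for Slfn8 and -0.4 to 0.21 for Slfn9.

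No paired analysis was possible because the replicate numbers are animal numbers, which no 2 groups share.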
